A study of Mus musculus with 22 samples.

Results

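Wnt and hedgehog pathway genes were read in sections of 2 mouse embryos at embryonic day 10 by CosMx spatial molecular imaging, in which probes bound to single RNA molecules are read over rounds of imaging and assigned to segmented cells. The members were all rows of the panel whose name begins with Wnt, Fzd, Dkk, Sfrp, Lgr, Rspo, Axin, Ptch or Gli followed by a digit, with Ror1, Ror2, Ctnnb1, Lef1, Tcf7, Apc, Lrp5, Lrp6, Shh, Ihh and Smo where these were rows. This gave 24 of the 998 genes: 9 Wnt ligands (Wnt1, Wnt3, Wnt5a, Wnt5b, Wnt7a, Wnt7b, Wnt9a, Wnt10b, Wnt11), 7 Frizzled receptors (Fzd1, Fzd3, Fzd4, Fzd5, Fzd6, Fzd7, Fzd8), the co-receptor Ror1, the modulators Rspo3, Lgr5 and Apc, the effectors Ctnnb1 and Tcf7, and Shh and Smo of the hedgehog pathway. The panel had no row for a member of the Dkk, Sfrp, Axin, Ptch or Gli families, nor for Ror2, Lef1, Lrp5, Lrp6 or Ihh.

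The study asked how the orphan nuclear receptors Nr4a1 and Nr4a2 act when blood stem cells emerge from endothelium. One embryo was Nr4a1-/-Nr4a2-/- (13 sections, labelled Knockout) and the other Nr4a1+/+Nr4a2+/+ (9 sections, labelled Wildtype), and the sections of each ran from anterior to posterior of the aorta-gonad-mesonephros region at a thickness of 10 µm. All sections of a genotype came from 1 embryo, so the tests compare 2 embryos and their p-values measure the spread between sections only. No embryo received a treatment. The paper gives the larger number of sections in its own analysis to the other genotype, so the groups, and with them every direction between the embryos, rest on the labels of the deposited samples.

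Wnt ligands are secreted lipid-modified proteins that bind Frizzled receptors. In the canonical branch this stabilises beta-catenin, the product of Ctnnb1, which then acts with DNA-binding partners such as Tcf7, while Ror1 binds Wnt5a in the branches that do not use beta-catenin. Shh is a secreted hedgehog ligand made in the embryo by notochord, floor plate and gut endoderm, and it acts on receiving cells by releasing Smo from inhibition by its receptor.

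The files held 37575 cells, and 37570 of them passed minimums of 10 transcripts and 10 genes. A section summed to between 169027 and 887896 transcripts in the Knockout embryo and to between 211614 and 820265 in the Wildtype embryo. With trimmed-mean (TMM) scaling, Nr4a1 and Nr4a2 were not called lower in the Knockout embryo (log2 difference -0.05 and 0.03, adjusted p = 0.716 and 0.860, edgeR, Benjamini-Hochberg adjustment). Per section total, Nr4a1 lay below every Wildtype section in 8 of 13 Knockout sections and Nr4a2 in 2, but most genes shared a shift of this direction. They therefore give no check of the labels, and whether the probes lie in the deleted parts was not given in the sources used here. Knockout section 13, which had the lowest sum of transcripts though not the lowest median per cell, stood apart: 178 genes of the panel were over 2 times below their median rate in the other sections, against at most 14 in any other section. Among them were the 5 members Wnt5b, Wnt7a, Fzd1, Fzd5 and Lgr5, and results were therefore also computed without it.

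A level is given below as transcripts of a gene per 10000 transcripts of all genes in the same cells of a section, and sections are summarised by the lowest, the median and the highest. Probes of different genes can differ in efficiency and are not scaled per length, so levels are ordered only against a floor. The floor was 25 genes of mature lymphocytes, such as Cd3d and Ighg1, which an embryo of this age should not use. Over all Knockout cells they lay between 2.10 and 7.0 with a median of 4.36, and over all Wildtype cells between 2.59 and 8.99 with a median of 5.11.

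Ctnnb1 was the only member above every floor gene in 22 of 22 sections. At least 1 of its transcripts was found in 44.7% of cells. Wnt5a, a ligand of the branch without beta-catenin, came next and exceeded all floor genes in 19 sections, at 9.36 over all Knockout cells and 11.3 over all Wildtype cells. The receptor gene Fzd7 did so in 16 sections, and Ror1, Fzd5 and Smo did so in 13 each.

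For the other ligands the floor was harder to clear. Wnt5b exceeded all floor genes in 7 sections and Shh in 1, whereas Wnt1, Wnt3, Wnt7a, Wnt7b, Wnt9a, Wnt10b and Wnt11 did so in none. Of the remaining receptors and modulators, Fzd3 did so in 11 sections, Fzd4 in 5, Fzd6 and Fzd8 in 2 each, and Fzd1, Lgr5 and Apc in 0. Rspo3, a secreted enhancer of Wnt signals, stood at 1.18 over all Knockout cells and at 1.31 over all Wildtype cells, and it and Tcf7 (2.70 and 2.56) lay below the floor median in every section. Most of these members cannot be told from background over whole sections, which limits what a difference in them can show.

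**Figure D1:**
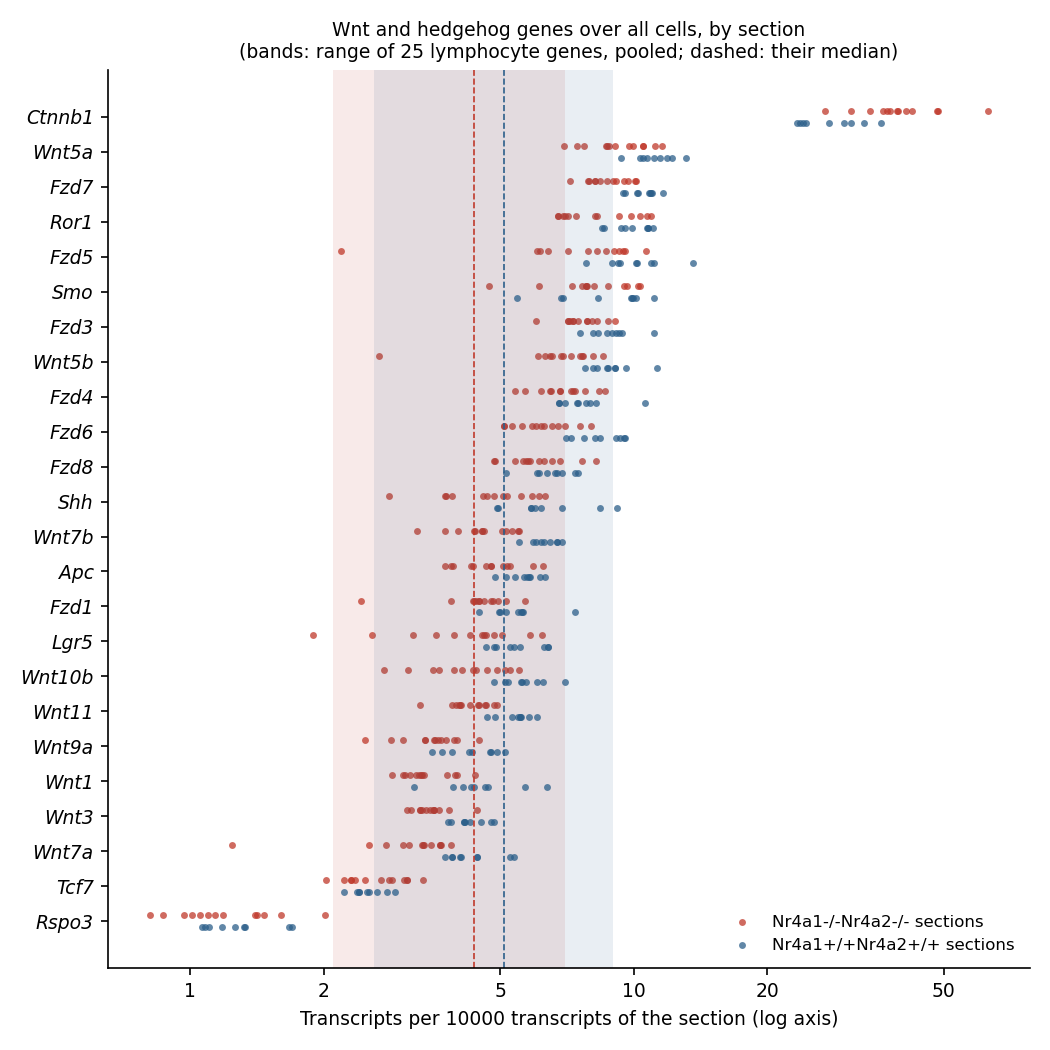
Level of each member in every section, as transcripts per 10000 transcripts on a log axis, by embryo, with the range and median of the 25 lymphocyte genes as the floor. Ctnnb1 sits above the floor range in all 22 sections, while Rspo3 and Tcf7 sit below its median in all of them.

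Shh differed from the other members in its highest count in a single cell. One Wildtype cell held 65 Shh transcripts, against a highest count of 16 in 1 cell for Ctnnb1, and 76 cells held 5 or more, a limit chosen after the values were seen. The number of such cells did not set it apart, with 87 for Wnt5a, 69 for Ror1 and 62 for Fzd7. At least 1 Shh transcript was found in 8.78% of all cells. Apart from Shh, no member but Ctnnb1 exceeded 9 transcripts in a cell.

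The next question was whether any member differed between the embryos over all cells. Of 24 members, 2 passed the test and both were higher in the Knockout embryo, beside 12.5% of all 998 genes called in either direction with 9.82% called higher and 2.71% lower. The median log2 difference was -0.01 over the members and -0.03 over all genes, so the 8.33% of members called lay near the background.

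Ctnnb1 had 27.1, 39.3 and 62.9 transcripts per 10000 as its lowest, median and highest value in the Knockout sections. The Wildtype sections held 23.3, 27.6 and 36.1. Thus 10 of the 13 Knockout sections lay above every Wildtype section, and the highest value was that of section 13. The log2 difference was 0.80 (SE 0.14, adjusted p = 0.000137, edgeR with Benjamini-Hochberg adjustment), and it stayed between 0.73 and 0.86 when any 1 section was left out. Scaled by section totals it was 0.52 (adjusted p = 0.000697, edgeR), where the median of all genes was -0.30.

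The file names carry a number, 1 or 2, within each genotype, which may stand for the slide, and no slide held both embryos if so. Among files numbered 1 the Knockout median of Ctnnb1 was 36.4 and the Wildtype median 31.5, and the log2 difference was 0.42 (adjusted p = 0.157, edgeR). Among files numbered 2 the medians were 45.4 and 24.5, with a difference of 1.16 (adjusted p = 0.00017, edgeR). Slide and embryo cannot be told apart here. The difference also moved with abundance: of the 100 most abundant genes, 59 were higher and 0 lower in the Knockout embryo, with a median log2 difference of 0.45, and the part of this in the Ctnnb1 result was not tested.

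Tcf7, a DNA-binding partner of beta-catenin, ranged over 2.02, 2.70 and 3.35 in the Knockout sections and over 2.22, 2.51 and 2.90 in the Wildtype sections. The groups overlapped, with 4 of 13 Knockout sections above the Wildtype range. Its log2 difference of 0.34 (SE 0.09, adjusted p = 0.0118, edgeR) fell to 0.07 (adjusted p = 0.472) when sections were scaled by their totals alone. It was 0.27 (adjusted p = 0.238) in sections numbered 1 and 0.42 (adjusted p = 0.0552) in those numbered 2, and its level lay below the floor median throughout.

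**Figure D2:**
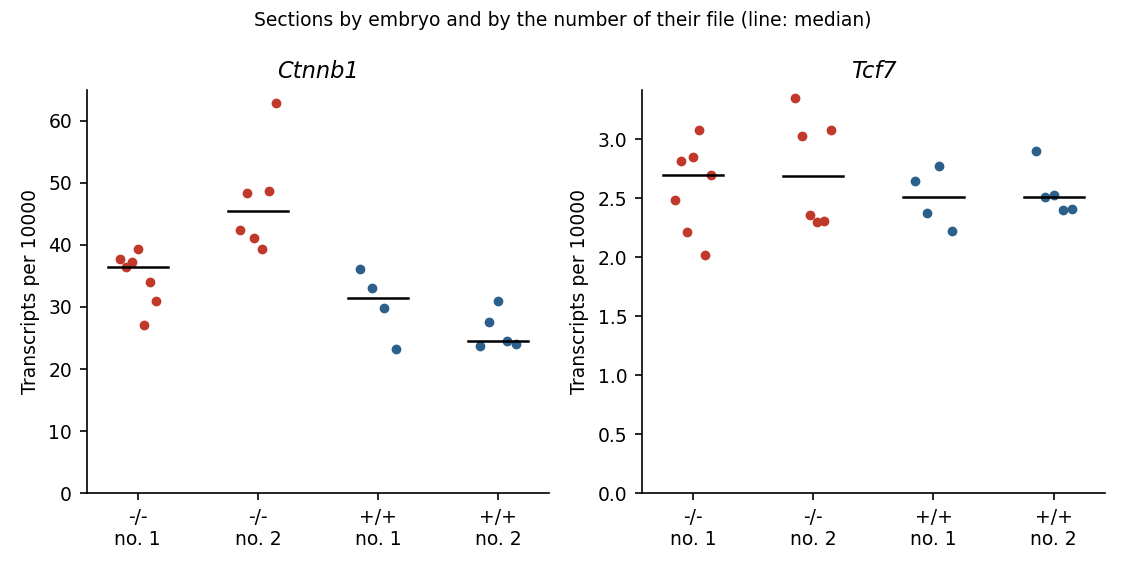
Ctnnb1 and Tcf7 in each section, as transcripts per 10000 transcripts, by embryo and by the number in the file name, with lines at the medians. Ctnnb1 is higher in the Knockout sections, most so among those numbered 2, and the Tcf7 values overlap.

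The other 22 members had log2 differences between -0.18 and 0.17 and did not pass. Wnt7b, a ligand of epithelia and neural tissue, was the lowest of these at -0.18 (SE 0.07, adjusted p = 0.104, edgeR). Its level per 10000 was 3.24, 4.56 and 5.51 in the Knockout sections against 5.52, 6.27 and 6.88 in the Wildtype sections, with no overlap. Most members share this shift in level per total: with scaling by section totals, 18 of 24 members were called lower and 1 higher, beside 719 and 58 of all 998 genes and 22 and 0 of the 25 floor genes. Trimmed-mean (TMM) scaling removed the shift by setting the bulk of genes near 0.

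With TMM scaling no receptor gene was called, from -0.17 for Fzd6 (adjusted p = 0.142, edgeR) to 0.17 for Fzd8 (adjusted p = 0.212). Per section total, Fzd6 lay below every Wildtype section in 11 of 13 Knockout sections and Fzd7 in 9. Shh was at -0.15 (SE 0.11) and Smo at 0.17 (SE 0.13). Among 13 further genes of the pathways, 2 were higher and 0 lower in the Knockout embryo, against the 9.82% of all genes called higher and the 59 of the 100 most abundant. They were the known beta-catenin targets Myc (0.47, SE 0.09, adjusted p = 0.000315, edgeR) and Ccnd1 (0.54, SE 0.15, adjusted p = 0.0120), a growth regulator and a cyclin of the cell cycle, whereas the adhesion receptor Cd44 stood at -0.09. In sections numbered 1 neither was called (Myc 0.42, adjusted p = 0.0978; Ccnd1 0.32, adjusted p = 0.231), and with scaling by totals Ccnd1 was at 0.26 (adjusted p = 0.071, edgeR) and Myc at 0.20 (adjusted p = 0.0254). The 6 Wnt receptors, inhibitors and polarity genes and the 4 genes that hedgehog signals induce were not called.

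**Figure D3:**
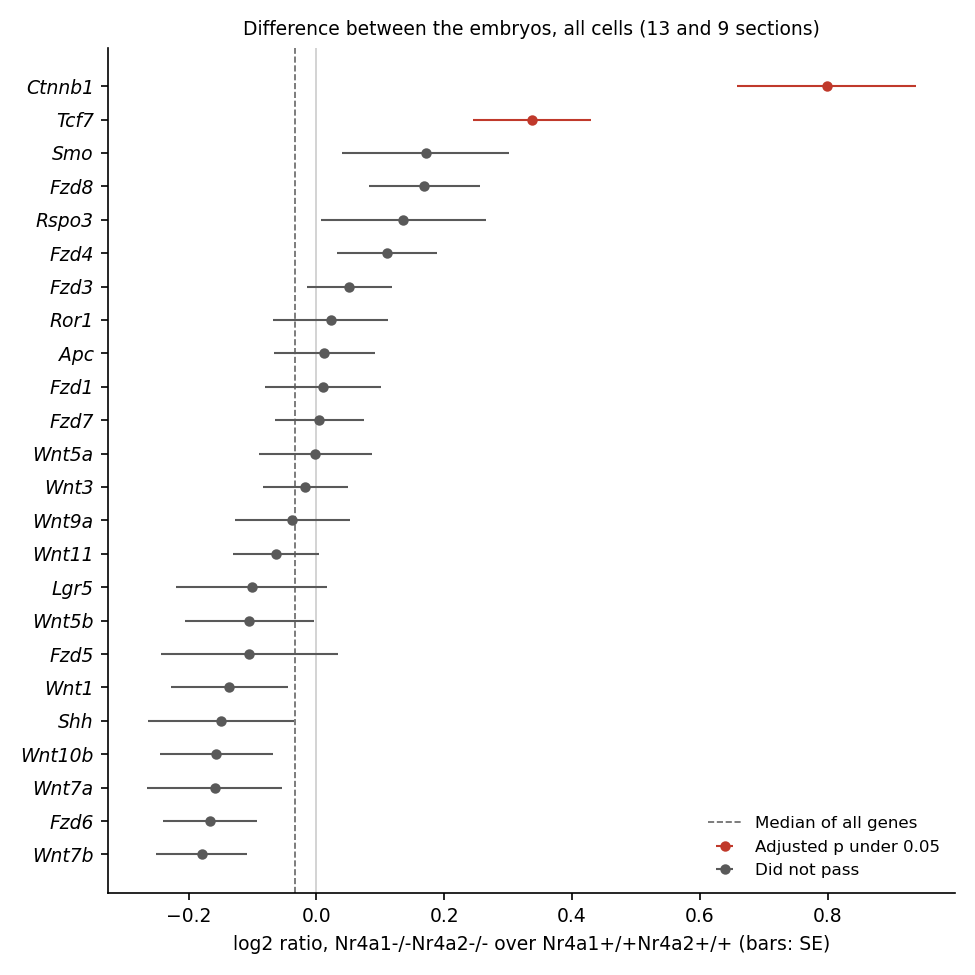
Log2 difference of each member between the Knockout and the Wildtype embryo over all cells, with standard errors from edgeR (bars), red points for members past the threshold and a dashed line at the median of all genes. Ctnnb1 (0.80) and Tcf7 (0.34) are past it, and the other 22 lie between -0.18 and 0.17.

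To place the members in cell groups, cells were gated on marker genes, none of them a member. A cell passed a gate with at least 3 transcripts of the marker list from at least 2 of its genes and at least 3 times the number expected from its total, and the 952 cells (2.53%) that passed several gates were left out of all groups. The gates held 1207 endothelial-like, 1618 erythroid-like, 1074 smooth-muscle-like and 1100 epithelial-like cells. Outside their lists, the endothelial-like cells were led by Cd34 and the smooth-muscle-like cells by Tpm2 in both embryos. Of 4 genes of striated or cardiac muscle, Ttn exceeded 2-fold over the other cells in smooth-muscle-like cells of both embryos. Tnnc1 did so in the Knockout embryo only, and Myl7 and Myh6 in neither embryo. The data did not bear out the names of the remaining gates, which are called by their markers: 1205 cells gated on Foxc1, Foxc2, Twist1 and Twist2 (Foxc1/Twist1-gated), 831 on a list that held Sox2 and Hes5 (Sox2/Hes5-gated) and 892 on complement C1q and other macrophage genes (C1q-gated). In the C1q-gated cells no gene outside the list reached 2-fold in either embryo. Levels of a cell group are sums over its cells, so fewer transcripts per cell and fewer cells that use a gene cannot be told apart.

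Each group was compared with all other cells of the same section by edgeR with the section as a block. Of 168 comparisons of a member with a group, 17 were higher and 14 lower in the gated cells. With scaling by totals 11 were higher and 25 lower, so the balance of directions depends on the scaling. In every alternative and without any 1 section 6 of the 31 calls were kept, all in erythroid-like cells: Ctnnb1, Smo, Wnt5a, Ror1, Fzd7 and Fzd5. The share called in a group is set beside that of all genes below.

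The epithelial-like cells, gated on Epcam, Cdh1, Krt8, Krt18, Krt19 and Cldn4, were higher in 4 of 24 members and lower in 0, beside 7.41% of all genes called (4.41% higher, 3.01% lower). Shh stood at 1.48, 11.4 and 60.3 per 10000 in the Knockout sections of these cells and at 3.02, 16.5 and 85.0 in the Wildtype sections. In the other cells the medians were 4.64 and 6.03. It was above the other cells in 17 of 22 sections, with a log2 difference of 1.82 (SE 0.31, adjusted p = 0.000248, edgeR). The difference was 1.66 to 1.89 without any 1 section, while the Wildtype sections alone gave 1.87 (adjusted p = 0.127, edgeR) and those numbered 1 gave 1.68 (adjusted p = 0.143). A few cells held much of the Shh: 16 Knockout and 13 Wildtype epithelial-like cells with 5 or more Shh transcripts held 289.8 and 310.2 per 10000. These cells were chosen on their Shh count, so their level is a description. The 683 and 388 with fewer held 6.62 and 5.32, beside 3.91 and 5.11 in cells outside the gate with fewer than 5, so that those of the Knockout embryo stood higher than outside and those of the Wildtype embryo nearly level, with no test made. Shh was the leading gene outside the gate's list in both embryos.

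Of the other members higher in epithelial-like cells, the receptor gene Fzd6, which also serves planar polarity, had medians of 9.38 in Knockout and 10.0 in Wildtype sections against 5.90 and 8.45 in the other cells. It was above them in 19 of 22 sections (log2 difference 0.53, SE 0.11, adjusted p = 0.000131, edgeR). Against other cells matched on total transcripts, the difference was 0.33 (adjusted p = 0.172), and in the Wildtype sections alone it was 0.29 (adjusted p = 0.577). Wnt7b ranged over 3.5, 5.19 and 11 in Knockout and 2.00, 7.09 and 9.41 in Wildtype sections of the gated cells, with a difference of 0.44 (SE 0.13, adjusted p = 0.0166). Fzd8 gave 0.42 (SE 0.13, adjusted p = 0.0231), and both fell short of the threshold when single sections were left out. Without Knockout section 8 or 9 Wnt7b was lost, and without any of 6 sections Fzd8 was, which stood at -0.062 in the sections numbered 1. In the Wildtype sections alone Wnt7b was at 0.27 (adjusted p = 0.669, edgeR) and Fzd8 at 0.32 (adjusted p = 0.588). The Knockout sections alone gave 0.52 (adjusted p = 0.0405, edgeR) and 0.45 (adjusted p = 0.0822).

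Among the further genes of the pathways, the planar polarity cadherin gene Celsr1 (0.45, adjusted p = 0.00340, edgeR) and Sostdc1 (0.56, adjusted p = 0.00751), a secreted inhibitor of Wnt and BMP signals, were higher in epithelial-like cells. In either embryo alone Celsr1 and Sostdc1 kept this direction but were not called.

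**Figure D4:**
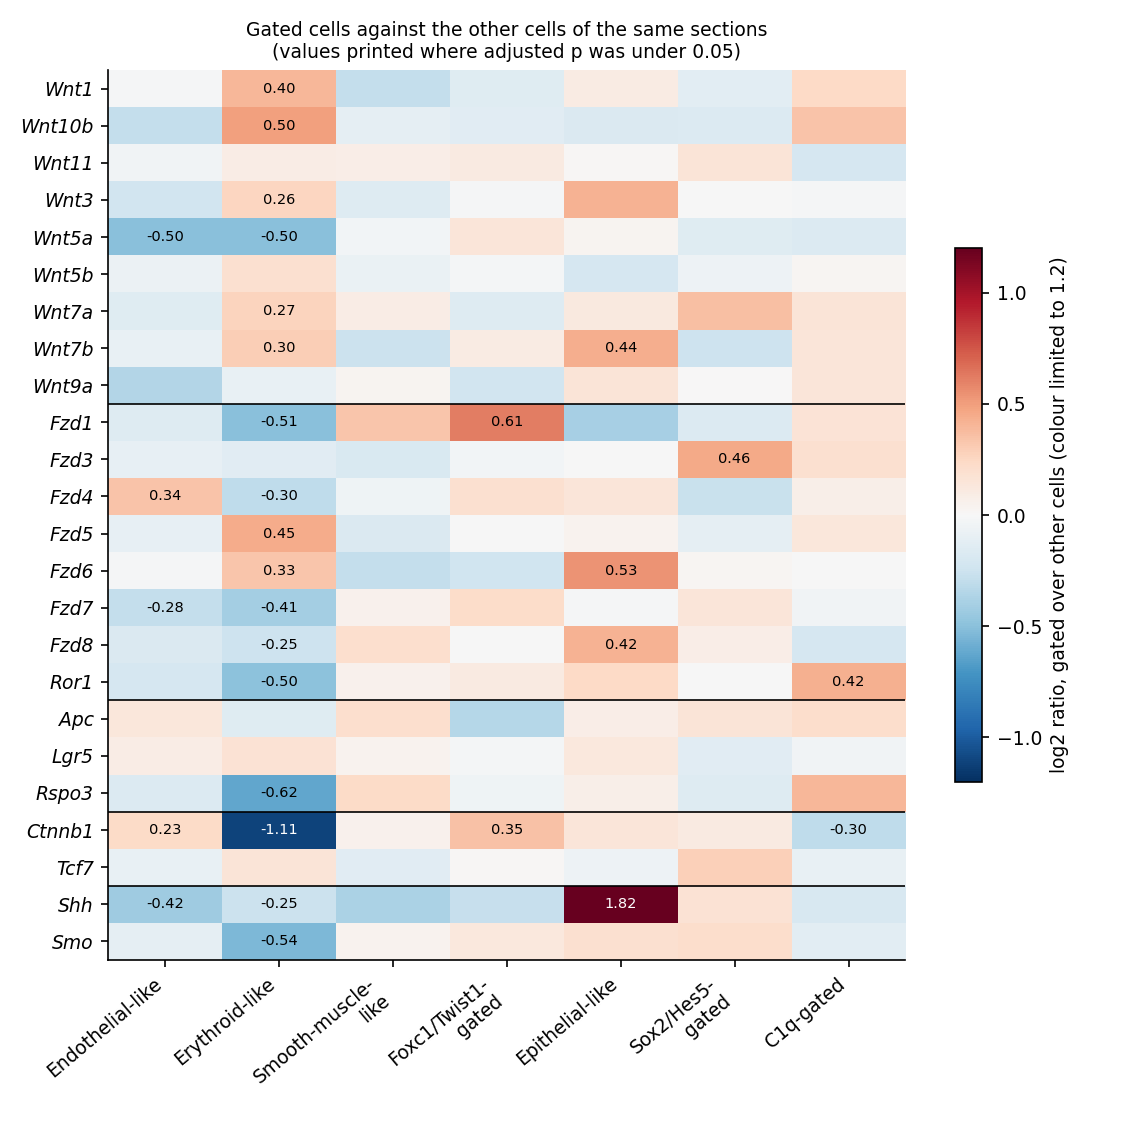
Log2 difference of each member between the cells of a gate and all other cells of the same sections, from edgeR with the section as a block. Colour gives the difference, and values are printed for those past the threshold. Shh in epithelial-like cells (1.82) and Ctnnb1 in erythroid-like cells (-1.11) are farthest from 0.

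The cells with 5 or more Shh transcripts numbered 38 in each embryo and occurred in 18 of 22 sections. Of the 76, 29 were epithelial-like, 4 were Sox2/Hes5-gated, 3 passed several gates and 40 passed none. They made up 2.29% of the 699 Knockout epithelial-like cells and 3.24% of the 401 Wildtype ones, against 0.139% of the 28691 cells in no gate. The epithelial-like ones lay in 11 of 22 sections, 6 Knockout and 5 Wildtype. Without Knockout section 10, which held 7 of the 16, the Knockout share was 1.44%, and without Wildtype section 7 the Wildtype share was 2.26%. None was found among endothelial-like, erythroid-like, smooth-muscle-like, Foxc1/Twist1-gated or C1q-gated cells, which allows shares of up to 0.249%, 0.185%, 0.279%, 0.249% and 0.336% by counting error alone.

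The share of cells with at least 1 Shh transcript differed less between groups. It was 15.2% of epithelial-like cells (95% Wilson interval 13.2 to 17.4%) and 13.1% of erythroid-like cells (11.5 to 14.8%), which should lack the gene, at median depths of 264 and 386 transcripts per cell. In the Knockout embryo the shares were 15.9% (13.4 to 18.8%) and 10.9% (8.92 to 13.3%), and in the Wildtype embryo the order turned, with 14% of epithelial-like, 15.1% of erythroid-like and 16.3% of Sox2/Hes5-gated cells. The epithelial-like cells carried 12.9% of all Shh transcripts and 3.56% of all transcripts. Wildtype section 7 held the highest epithelial-like value of 85.0, and without it 67 Shh-rich cells remained, of which 24 were epithelial-like.

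**Figure D5:**
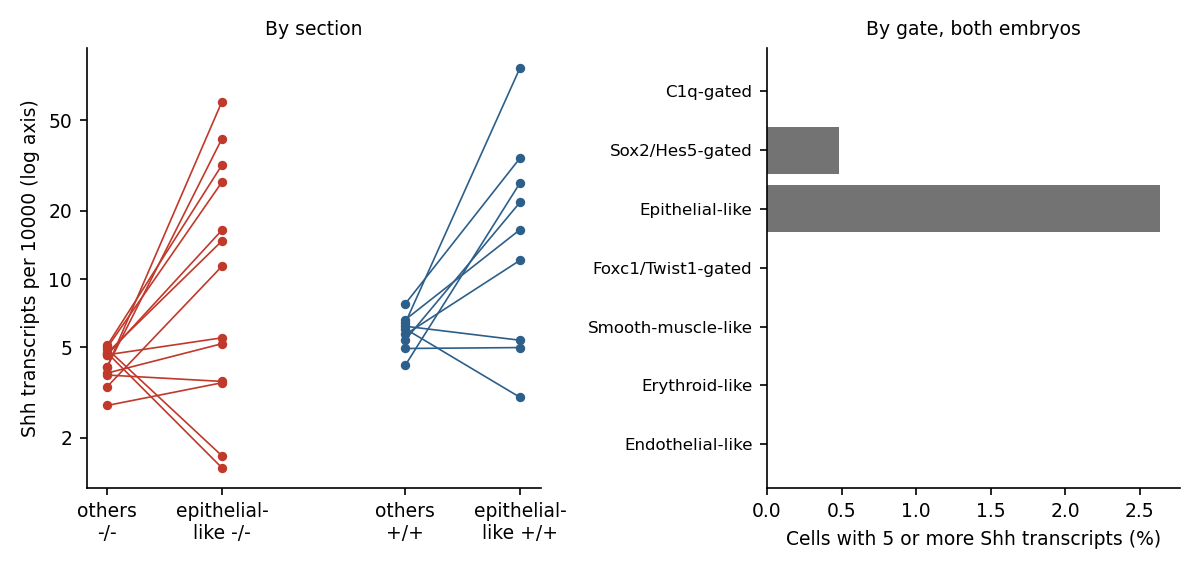
Shh in epithelial-like cells and in the other cells of each section, as transcripts per 10000 transcripts on a log axis with a line per section, and the percentage of the cells of each gate with 5 or more Shh transcripts. The gated value is above that of the other cells in 17 of 22 sections, and the percentage is 2.64 in epithelial-like cells, 0.481 in Sox2/Hes5-gated cells and 0 in the other gates.

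Endothelial-like cells, the lineage from which blood stem cells arise, were higher in 2 members and lower in 3, beside 19.9% of all genes called (12.1% higher, 7.82% lower). With scaling by totals 1 member was higher and 6 were lower, beside 96 and 165 of all genes. Ctnnb1, whose product also links VE-cadherin to the cytoskeleton at endothelial junctions, ranged over 28.6, 42.9 and 61.7 in the Knockout and 17.9, 35.3 and 44.3 in the Wildtype sections. The medians of the other cells were 38.7 and 27.5. The log2 difference was 0.23 (SE 0.07, adjusted p = 0.00352, edgeR), and 15 of 22 sections showed it. In the Knockout sections alone it was 0.18 (adjusted p = 0.0689). Of 13 alternatives 3 lost the call, with differences down to 0.15 and an adjusted p of up to 0.289 (edgeR).

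Fzd4, the receptor for Norrin in vessels of the retina and brain, had medians of 8.28 and 8.13 in endothelial-like cells against 6.86 and 7.48 in the others. It was above them in 14 of 22 sections (0.34, SE 0.11, adjusted p = 0.00975, edgeR). The difference was 0.26 (adjusted p = 0.0619) with scaling by totals and 0.19 (adjusted p = 0.322) against cells matched on total transcripts. The Wildtype sections alone gave 0.23 (adjusted p = 0.505) and the Knockout sections alone 0.43 (adjusted p = 0.0149). Wnt5a was lower, at 1.66, 5.65 and 9.98 in the Knockout and 4.63, 6.82 and 9.77 in the Wildtype sections against medians of 9.18 and 11.2 in the other cells. In 21 of 22 sections its gated value did not exceed that of the others (-0.50, SE 0.11, adjusted p = 8.8e-05, edgeR), with -0.42 (adjusted p = 0.0729) in the Wildtype sections alone.

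Shh (-0.42, adjusted p = 0.0183, edgeR) and Fzd7 (-0.28, adjusted p = 0.0465) were lower as well, but Shh was lost without Knockout section 6 or 9 and Fzd7 without any of 15 sections. In the Knockout and Wildtype sections alone, Shh was at -0.49 (adjusted p = 0.0760, edgeR) and -0.32 (adjusted p = 0.424). Fzd7 was at -0.37 (adjusted p = 0.0672, edgeR) and -0.14 (adjusted p = 0.717). Pooled Shh was 3.14 and 4.57 here, beside 3.91 and 5.11 in cells outside the epithelial-like gate with fewer than 5 Shh transcripts. Cd44, an adhesion receptor of vessels and blood cells, was higher (0.43, adjusted p = 0.000532, edgeR), and Celsr1 was lower (-0.51, adjusted p = 0.00126). Neither was called in both embryos taken alone, with Cd44 at 0.34 (adjusted p = 0.0973) in the Knockout sections alone and Celsr1 at -0.31 (adjusted p = 0.38) in the Wildtype sections alone.

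Erythroid-like cells, gated on globin genes, Epor and Csf2rb, moved in most members: 7 were higher and 10 lower, beside 52.2% of all genes called, 31.8% higher and 20.4% lower. With scaling by totals 3 members were higher and 11 lower, and the calls over all genes turned from 317 higher and 204 lower to 144 and 269. Ctnnb1 was at 8.17, 17.7 and 24.2 in the Knockout and at 7.54, 13.1 and 21.7 in the Wildtype sections, against medians of 40.2 and 28.6 in the other cells. It was below the other cells in every section (-1.11, SE 0.08, adjusted p = 1.88e-24, edgeR). Smo, the transducer of hedgehog signals, was also below them in every section (-0.54, SE 0.09, adjusted p = 3e-07).

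Receptors and ligands split within this group. Wnt5a (-0.50), Ror1 (-0.50), Fzd1 (-0.51), Fzd7 (-0.41), Fzd4 (-0.30), Fzd8 (-0.25), Shh (-0.25) and Rspo3 (-0.62) were lower. Against cells matched on total transcripts, Fzd1 was at -0.34 (adjusted p = 0.0947, edgeR) and Fzd4 at -0.25 (adjusted p = 0.140). In the Knockout sections alone Fzd4 was at -0.26 (adjusted p = 0.199, edgeR) and Rspo3 at -0.55 (adjusted p = 0.224), and Rspo3 ran from -1.93 in sections numbered 1 to -0.18 (adjusted p = 0.629) in those numbered 2. Wnt10b, a ligand known in blood and fat lineages, was higher, with medians of 4.90 in Knockout and 7.23 in Wildtype sections against 4.11 and 5.47 in the other cells (0.50, SE 0.10, adjusted p = 3.44e-05, edgeR, 17 of 22 sections).

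Fzd5, a receptor of canonical ligands, had medians of 9.80 and 13.0 against 8.42 and 9.90 (0.45, SE 0.08, adjusted p = 1.65e-06, edgeR, 18 of 22 sections). For Wnt1 they were 4.15 and 5.97 against 3.30 and 4.13 (0.40, SE 0.11, adjusted p = 0.00161, 16 of 22 sections). Fzd6 (0.33), Wnt7b (0.30), Wnt7a (0.27) and Wnt3 (0.26) were higher by less. Of the 3 with the largest rise, Wnt10b was at 0.30 (adjusted p = 0.0975, edgeR) and Wnt1 at 0.17 (adjusted p = 0.434) in the sections numbered 2, and Wnt1 was at 0.34 (adjusted p = 0.139) in the Knockout sections alone. Fzd6 lost its call in either file number alone and in the Knockout sections alone (0.26, adjusted p = 0.166, edgeR).

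Beside these, 7 of the 25 floor genes were also higher in erythroid-like cells and 0 lower, with a median log2 difference of 0.13, and 73 of the 100 most abundant genes were lower, with a median of -0.50. The part of this in the rise of the rare ligands and the fall of Ctnnb1 was not tested. Fzd8, Shh, Wnt3, Wnt7a and Wnt7b each lost the call without at least 1 section (Wnt7b without Knockout section 11), and Wnt7a was at -0.016 in the sections numbered 2. None of them was called in either embryo alone, with a lowest adjusted p of 0.0656 (Fzd8 in the Wildtype sections, edgeR). Myc was higher (0.86, SE 0.08, adjusted p = 3.61e-18, edgeR), in 21 of 22 sections, whereas Ccnd1 (-0.45, adjusted p = 4.02e-07) was lower.

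Foxc1/Twist1-gated cells were higher in 2 members and lower in 0, beside 11.7% of all genes called (7.72% higher, 4.01% lower). Scaled by totals, 2 were higher and 1 lower, beside 54 and 110 of all genes. The receptor gene Fzd1 was at 0, 6.38 and 12.9 in the Knockout and at 4.21, 6.79 and 8.93 in the Wildtype sections, with medians of 4.48 and 5.51 in the other cells (0.61, SE 0.15, adjusted p = 0.000635, edgeR, 16 of 22 sections), and it was at 0.40 (adjusted p = 0.388) in the Wildtype sections alone. Its pooled level of 7.08 and 6.45 lay within the floor range of these cells, which reached 7.32 and 10.3. Ctnnb1 had medians of 47.0 and 36.5 against 39.1 and 27.4 (0.35, SE 0.07, adjusted p = 2.38e-05), but the difference was -0.032 against other cells matched on total transcripts. Pax1 (0.85, adjusted p = 2.89e-09, edgeR) and Pax9 (0.64, adjusted p = 0.000233), the sclerotome genes that Shh from notochord is known to induce, were higher in these cells, and so was Myc (0.68, adjusted p = 1.77e-07). In the Wildtype sections alone Pax9 (0.48, adjusted p = 0.241) and Myc (0.40, adjusted p = 0.301) were not called.

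In Sox2/Hes5-gated cells 1 member was called, beside 6.51% of all genes (2.71% higher, 3.81% lower). Fzd3, a receptor gene of axon guidance and planar polarity, was at 7.94, 9.57 and 15.1 in 12 Knockout sections and at 6.05, 12 and 20.1 in the Wildtype sections, with medians of 7.42 and 8.89 in the other cells. It was above them in 19 of 21 sections (0.46, SE 0.12, adjusted p = 0.00438, edgeR). The Wildtype sections alone gave 0.30 (adjusted p = 0.524), and cells matched on total transcripts gave 0.27 (adjusted p = 0.289). The planar polarity genes Celsr1 (0.52, adjusted p = 0.0118) and Celsr2 (0.69, adjusted p = 9.27e-05, edgeR) were higher too, but in the Wildtype sections alone they were at 0.085 (adjusted p = 0.948) and 0.29 (adjusted p = 0.643). The difference of this contrast between the embryos was 0.78 for Celsr1 (adjusted p = 0.208, edgeR) and 0.71 for Celsr2 (adjusted p = 0.304), and Celsr1 was lost without Knockout section 10.

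The C1q-gated cells were higher in Ror1 and lower in Ctnnb1, beside 10.2% of all genes called (3.51% higher, 6.71% lower). Under scaling by totals 2 members were higher and 1 lower, beside 84 and 42 of all genes. Ror1 had medians of 14.3 and 11.3 against 7.89 and 9.89 in the other cells (0.42, SE 0.11, adjusted p = 0.00136, edgeR, 18 of 22 sections). The floor median was 5.17 in Knockout and 5.32 in Wildtype C1q-gated cells, beside 4.36 and 5.11 over all cells. The part of this in the rise of Ror1 was not tested. For Ctnnb1 the medians were 32.4 and 27.3 against 39.6 and 27.7 (-0.30, SE 0.07, adjusted p = 0.00117). In the Wildtype sections alone neither was called, with Ror1 at 0.30 (adjusted p = 0.657) and Ctnnb1 at -0.14 (adjusted p = 0.858). Smooth-muscle-like cells had 0 members called by edgeR, beside 12.9% of all genes (8.62% higher, 4.31% lower). There were 3 members at an unadjusted p under 0.05 and 1 member, Fzd1, called by DESeq2. Scaled by totals, 0 were higher and 6 lower, beside 6.11% of all genes higher and 14.9% lower. There the further genes did move: Ccnd1 (-0.55, adjusted p = 3.01e-06, edgeR) and Myc (-0.40, adjusted p = 0.00745) were lower, and in the Wildtype sections alone they were at -0.31 (adjusted p = 0.312) and -0.23 (adjusted p = 0.648).

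Whether the embryos differed within a cell group could be tested for fewer members, since many had too few counts. In erythroid-like cells 21 members were tested and 1 was called, Ctnnb1, beside 3.20% of the genes tested. Its level there is given above, and 3 of 13 Knockout sections lay above the Wildtype range (0.72, SE 0.18, adjusted p = 0.00566, edgeR). It was 0.30 (adjusted p = 0.859) in sections numbered 1 and 1.04 in those numbered 2. With scaling by totals it was 0.28 (adjusted p = 0.159), and 0 members were then higher and 10 lower, beside 19 and 406 of the 907 genes tested. Myc was higher in the same cells of the Knockout embryo, at 10.1, 17.7 and 25.3 against 6.91, 11.8 and 18.2 (0.83, SE 0.17, adjusted p = 0.000452, edgeR). It was at 0.38 (adjusted p = 0.052) with scaling by totals and at 0.58 (adjusted p = 0.549) in sections numbered 1.

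Sox2/Hes5-gated cells had 7 members tested, and Ctnnb1 was again the 1 called, beside 23.3% of the genes tested. It was at 22.7, 39.5 and 119 in 12 Knockout sections and at 15, 26.9 and 34.5 in the Wildtype sections, and 9 Knockout sections lay above the Wildtype range (0.87, SE 0.24, adjusted p = 0.00643, edgeR). With at least 5 marker transcripts required of a cell, the difference was 0.40 (adjusted p = 0.184). It was 0.29 (adjusted p = 0.631) in sections numbered 1 and 0.45 (adjusted p = 0.0606) with scaling by totals, and DESeq2 also called Fzd8 in these cells.

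In the other groups edgeR called 0 members: of 10 tested in endothelial-like cells (3.02% of genes called), 15 in smooth-muscle-like (1.51%), 4 in Foxc1/Twist1-gated (17.7%), 11 in epithelial-like (2.04%) and 9 in C1q-gated cells (5.93%). At an unadjusted p under 0.05 there were 3, 1, 1, 1 and 2 of them. DESeq2 called Ctnnb1 in endothelial-like, smooth-muscle-like and epithelial-like cells and no member in the remaining groups of these.

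Finally, the contrast of each group with its other cells was compared between the embryos by a group by genotype term. edgeR called 0 of 24 members in each of the 7 groups, beside at most 0.501% of all genes, with 6 of 168 at an unadjusted p under 0.05 and a lowest adjusted p of 0.208. For Shh in epithelial-like cells the term was -0.13 (SE 0.60), and for Ctnnb1 in erythroid-like cells it was -0.02 (SE 0.16). The size of the first error leaves a wide range of differences in Shh undetectable with these sections.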

How the data were processed

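The deposited values were raw counts: transcripts of 998 genes in each segmented cell, made by the authors with the AtoMx software from CosMx images of fresh frozen sections, without normalization. The labels name paraffin and a human panel where the methods name fresh frozen tissue and a mouse panel. The members, gates and gene lists were chosen with earlier results of these data known. Members were all named. Per-section values were given for those past the threshold between embryos and the 3 highest per gate, and also for some others, such as Wnt7b between the embryos and members lower in a gate. Of 37575 cells, 5 were left out; 3410 cell names recurred between sections, with 0 identical profiles. No doublet caller was run. Foxc2 marks a gate and cells of several gates were left out, so it was not read in contrasts of gated cells.

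Counts were summed per section and gate (at least 10 cells) and tested with edgeR 4.0.16 (TMM scaling, filterByExpr, robust quasi-likelihood), with Benjamini-Hochberg adjustment over all genes tested and a threshold of 0.05. DESeq2 1.42.0 and limma 3.58.1 (voom) served alternatives. The fits were also run on simulated counts with changes of known size. These counts held no shift with abundance such as the one seen between the embryos, so they do not test the fits under it. Depth per section is given with the report, and intervals and limits cover counting error only.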

Additional observations from a re-analysis of the deposited data

Results flagged for a closer look

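Of 56 groups of 9 Wildtype sections examined, 7 held 1 section far from the others by the gap to its nearest neighbour over the range of the group, where chance gives about 1 in 20. Knockout groups, of over 10 sections, were not examined. Over all cells they were Fzd1 in section 3, at 7.37 transcripts per 10000, and Fzd4 in section 4, at 10.6. In endothelial-like cells Fzd7 reached 15.6 in section 5. In erythroid-like cells Fzd1 reached 8.19 in section 8 and Wnt10b 11.9 in section 4. In Foxc1/Twist1-gated cells Ctnnb1 was 47.6 in section 1. In epithelial-like cells Shh was 85.0 in section 7, with 34.1 in the nearest section.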

How the results depend on the processing

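The count of members that differed between the embryos over all cells was 2, and it was 19 with scaling by section totals, 0 in sections numbered 1 and 1 in those numbered 2. Within gates it was also 2, and it was 17 with scaling by totals, 6 with DESeq2, 0 in sections numbered 1, 4 in sections numbered 2 and 1 with at least 5 marker transcripts. The 31 calls of gates against other cells were 13 against cells matched on total transcripts, 16 in sections numbered 1, 18 in Knockout sections alone and 15 in Wildtype sections alone. Fewer sections entered the last 3. The cause of the other moves was not tested. Leaving out 1 section at a time, an alternative chosen after seeing the data, gave 2 to 2, 2 to 3 and 25 to 32 calls, and 41 of 51 named comparisons were kept whichever section was left out. Of 629 alternative values of these 51, 133 lost the call, the remainder but 3 kept direction and call, and 3 reversed: Wnt7a in erythroid-like cells in sections numbered 2 (-0.016), Ctnnb1 in Foxc1/Twist1-gated cells against matched cells (-0.032) and Fzd8 in epithelial-like cells in sections numbered 1 (-0.062). With the file number within each embryo as a random block, Ctnnb1 over all cells gave 0.84 (adjusted p = 0.000287, limma). Each embryo had only 2 such blocks, so this value says little on the spread between them. No paired analysis was possible because the labels number no replicates within a genotype, and the section numbers used here follow the order of deposit and pair no sections.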

Other observations

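Sox9, a transcription factor gene of notochord, sclerotome and gut, was examined in Shh-rich cells after the values were seen. Epithelial-like cells with 5 or more Shh transcripts held 62.0 Sox9 transcripts per 10000 in the Knockout and 60.3 in the Wildtype embryo, against 23.5 and 14.2 in the other epithelial-like cells. Genes of the gate itself were not uniformly higher in the Shh-rich cells: Cldn4 was 6.74 against 13.4 in the Knockout and 4.83 against 20.3 in the Wildtype embryo, and in the Wildtype embryo Epcam was 6.03 against 14.7 and Cdh1 14.5 against 41.2. Krt8 was higher in both, at 128.1 against 79.2 and at 88.1 against 64.1, and so was Krt19, at 59.3 against 28.3 and at 35.0 against 30.2. In the Knockout embryo Epcam (14.8 against 13.7), Cdh1 (31.0 against 27.6) and Krt18 (59.3 against 49.7) were higher too, and in the Wildtype embryo Krt18 was 30.2 against 36.1. These values come from 16 and 13 cells and were not tested.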
